A study of Mus musculus with 24 samples.

Results

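The genes described here are 10 genes that mark Sertoli cells: *Sox9*, *Wt1*, *Gata4*, *Rhox5*, *Clu*, *Fshr*, *Cldn11*, *Inhbb*, *Aard* and *Amhr2*. They were found by symbol in the count tables of mouse testis, where they are 10 of 24456 genes listed. The rule for them used no measured value, although earlier results of these data were known when they were chosen. All 10 passed the filter on low counts and were tested among 17170 genes. RNA came from wild-type (WT) males and from homozygous *Atad2* knockout (KO) males killed at 20, 22, 24 or 26 days after birth. The KO allele carries a *lacZ* reporter cassette in *Atad2* and lacks exon 12, which was removed in every tissue by Cre recombinase driven from the CMV promoter, so Sertoli cells carry the deletion as germ cells do. Each genotype had 4 libraries on each of days 20 and 22 and 2 on each of days 24 and 26, which makes 24 over both. The study calls these biological replicates, and how many animals or testes went into a library was not stated. Libraries are named by genotype, day and replicate number, such as WT_d20_2.

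Sertoli cells are the somatic cells of the seminiferous tubule. They surround the germ cells, feed them, and close the tubule by junctions that form the blood-testis barrier. Follicle-stimulating hormone (FSH) acts on them through its receptor, testosterone acts on them as well, and they secrete inhibin, anti-Müllerian hormone and carrier proteins. In the mouse they stop dividing before the days sampled here, while spermatids of the first spermatogenic wave begin to fill the tubules. RNA of a whole testis is a mixture: in such bulk samples, fewer cells of a type and less RNA per cell cannot be told apart.

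Each library held between 10709667 and 19491935 counts in genes. Levels are given as TMM-scaled CPM, the counts relative to a common library size that was set by edgeR's trimmed mean of M values. A gene was called changed at an adjusted p under 0.05 (edgeR quasi-likelihood test, Benjamini-Hochberg adjustment over all 17170 genes). *Atad2* was lower in KO at each day, with differences of -1.67, -1.13, -1.43 and -1.25 on the log2 scale, of which the first 3 were called (adjusted p = 0.0628 at day 26). The labels speak of purified spermatogenic fractions, whereas the methods of the study describe harvested testes. In the libraries all 10 Sertoli cell genes, 8 of 8 Leydig cell markers and 6 of 6 peritubular myoid markers had counts in every library. The methods give 3 libraries per genotype at day 20 and the labels 4, and all labelled libraries were used. The library WT_d20_2 had the lowest level of its group in 7 of the 10 genes (*Aard*, *Amhr2*, *Cldn11*, *Clu*, *Gata4*, *Inhbb* and *Wt1*). Its median deviation from the group means over the 10 genes was -0.213 on the log2 scale. Other libraries deviated about as far from theirs, such as KO_d22_2 (-0.206) and KO_d22_4 (0.268). *Crisp1*, a transcript of epididymal epithelium, was above 10 CPM in 9 libraries, at up to 637 CPM in WT_d24_2, and at or below 1.87 CPM in the others. These 9 were KO_d20_3, WT_d20_3, KO_d22_1, WT_d22_3, WT_d22_4, KO_d24_2, WT_d24_2, KO_d26_2 and WT_d26_2.

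The levels of the 10 genes were first compared with each other per kilobase of exons. *Clu*, which encodes the secreted chaperone clusterin and is also abundant in epididymis, was highest, at a mean of 304 CPM per kilobase over the 24 libraries (195 to 496). *Aard*, a gene of testis named for its alanine and arginine rich protein, followed at 136 (88.6 to 181). *Cldn11*, the claudin of the blood-testis barrier, had 77.6 (48.6 to 106), and *Amhr2*, the receptor of anti-Müllerian hormone, had 57.4 (32.9 to 75.9). *Clu* was above *Aard*, and *Aard* above *Cldn11*, in 24 of 24 libraries, whereas *Cldn11* was above *Amhr2* in 20 of 24.

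Below these lay the transcription factors and the hormone genes. *Sox9*, which directs Sertoli cell fate, had 17.1 CPM per kilobase (9.73 to 26.4) and was above the next gene in 24 of 24 libraries. *Wt1* (13.6), *Gata4* (13.3), *Rhox5* (12.6) and *Inhbb* (12.1) followed. *Wt1* and *Gata4* encode factors that maintain the gonadal somatic lineage, *Rhox5* an androgen-responsive homeobox factor and *Inhbb* the beta B subunit of inhibin and activin. The neighbours in this order did not separate: *Wt1* was above *Gata4* in 14 of 24 libraries, *Gata4* above *Rhox5* in 11 and *Rhox5* above *Inhbb* in 14. *Fshr*, the FSH receptor, was lowest at 4.80 (2.46 to 7.54) and was below *Inhbb* in every library.

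**Figure D1:**
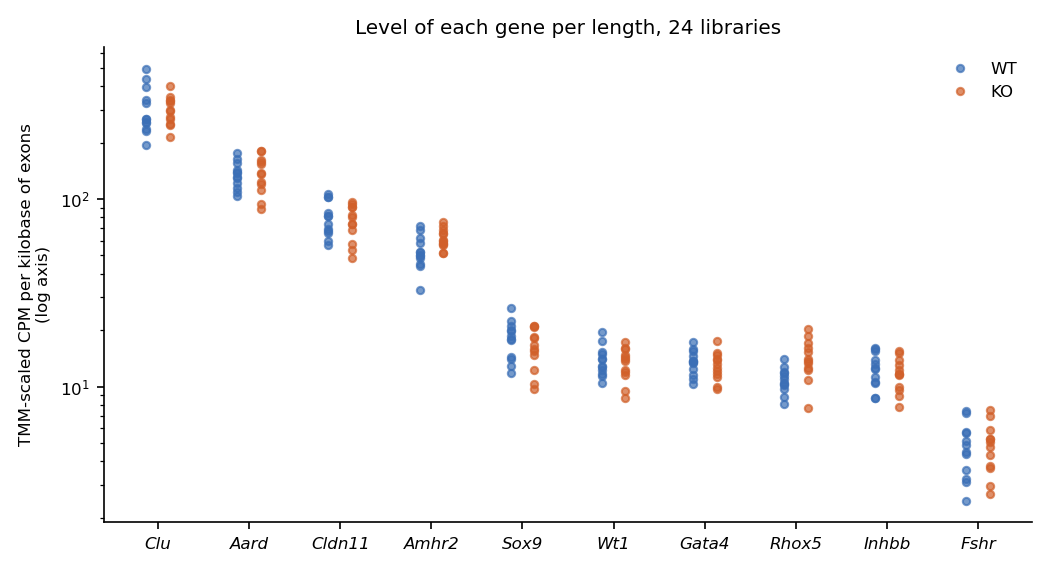
Level of each gene in TMM-scaled CPM per kilobase of exons on a log axis, 1 point per library, WT blue and KO orange. *Clu* lies at 195 to 496 and *Fshr* at 2.46 to 7.54, and the points of *Wt1*, *Gata4*, *Rhox5* and *Inhbb* share one range.

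Counting depth differed accordingly. *Clu* was counted 9358 to 29493 times per library, *Rhox5* 89 to 232 times and *Fshr* 81 to 272 times, so the last 2 carry the largest counting error. All lay above the level of 3 counts, which is 0.154 to 0.280 CPM here. Within groups, the SD of a gene was 10.3% for *Aard*, 10.9% for *Wt1* and 11.3% for *Cldn11*, and up to 17.4% for *Amhr2*, 18.0% for *Inhbb* and 18.6% for *Rhox5*.

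The genes lie on 8 chromosomes of mm10 and overlap no other annotated gene in GENCODE M21, all as protein-coding genes. *Sox9* is at chr11:112782224-112787760 (plus strand), *Wt1* at chr2:105126529-105173616 (plus), *Gata4* at chr14:63198922-63271692 (minus) and *Clu* at chr14:65968483-65981547 (plus). *Fshr* is at chr17:88984952-89200675 (minus), *Cldn11* at chr3:31149920-31164324 (plus) and *Inhbb* at chr1:119415465-119422248 (minus). *Aard* is at chr15:52040107-52045722 (plus), *Amhr2* at chr15:102445367-102454633 (plus) and *Rhox5* at chrX:37804842-37808876 (plus).

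The promoter table of RefSeq (GRCm38.p6, the assembly of mm10) held *Fshr*, *Cldn11*, *Amhr2*, *Inhbb* and *Rhox5*, 5 of the 10 genes, and no entry for *Sox9*, *Wt1*, *Gata4*, *Clu* and *Aard*. The 250 bases before the start are shown for 2 genes that were lower at day 26 in both genotypes and for *Amhr2*, which was not. They are printed 5′ to 3′ on the strand of the gene, at chr17:89200676-89200925 (minus strand), chr3:31149670-31149919 (plus) and chr15:102445117-102445366 (plus), with motif matches in capitals.
Fshr: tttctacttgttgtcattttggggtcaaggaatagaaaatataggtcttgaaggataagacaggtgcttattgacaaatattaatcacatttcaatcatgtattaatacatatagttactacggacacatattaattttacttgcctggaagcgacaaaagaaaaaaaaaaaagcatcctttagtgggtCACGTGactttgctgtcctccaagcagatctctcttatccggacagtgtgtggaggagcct
Cldn11: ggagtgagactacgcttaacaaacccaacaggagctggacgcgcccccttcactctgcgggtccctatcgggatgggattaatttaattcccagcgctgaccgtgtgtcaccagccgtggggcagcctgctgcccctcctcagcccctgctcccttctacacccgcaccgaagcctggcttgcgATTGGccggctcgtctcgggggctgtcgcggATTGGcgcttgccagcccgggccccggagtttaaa
Amhr2: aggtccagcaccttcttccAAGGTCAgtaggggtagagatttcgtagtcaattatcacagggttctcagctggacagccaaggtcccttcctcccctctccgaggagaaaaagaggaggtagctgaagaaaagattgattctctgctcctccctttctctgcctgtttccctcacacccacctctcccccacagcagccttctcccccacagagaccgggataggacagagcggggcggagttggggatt

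The motifs searched on both strands were the E-box CACGTG, the nuclear receptor half-site AAGGTCA that SF-1 recognises, the GATA motif AGATAA (in 9.99% of windows and in none of the 5 here), the SOX motif AACAAT and the CCAAT box CCAAT. *Fshr* held CACGTG 61 bases before its start, a match present in 6.02% of all 32817 promoter windows of this length. *Cldn11* held CCAAT on the opposite strand 66 and 35 bases before its start (33.8% of windows held it), and *Amhr2* held AAGGTCA 231 bases before its start (4.08%). The window of *Inhbb* held none of the 5 motifs. That of *Rhox5*, chrX:37754358-37754607, belongs to a start upstream of the gene body given by GENCODE, and it held AACAAT once (9.42% of windows) and CCAAT 3 times. A match is a run of letters and was not tested as a site.

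In WT testes, 6 of the 10 genes were lower at day 26 than at day 20 and none was higher. The FSH receptor fell most, followed by clusterin, *Sox9*, *Cldn11*, *Wt1* and *Aard*. Of all genes tested, 18.1% were called lower in this comparison, 42.5% in either direction. The median log2 fold change was -0.58 over the 10 genes and -0.04 over all genes tested.

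*Fshr* had 17.0, 17.5, 13.3 and 13.5 CPM in the WT libraries of day 20, and 7.59 and 5.81 CPM at day 26. Both late libraries lay below all early ones. This was a change of -1.18 on the log2 scale (SE 0.21, adjusted p = 0.000123), that is, to 0.440 of the level at day 20. At day 22 it had 10.3 to 12.1 CPM and at day 24 7.34 and 8.44 CPM, so the mean level of each later day lay below that of the day before in WT, with no overlap between days 20, 22 and 24.

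*Clu* had 1493, 1157, 1705 and 1370 CPM in the WT libraries of day 20 and 791 and 671 CPM at day 26. Its log2 fold change was -0.97 (SE 0.19, adjusted p = 0.000361), again without overlap of the groups. The transcription factor *Sox9* went from 81.9, 93.1, 109 and 87.0 CPM to 53.1 and 48.9 CPM, a log2 fold change of -0.86 (SE 0.17, adjusted p = 0.000280). *Wt1* fell less, from 92.9 to 121 CPM at day 20 to 65.3 and 70.6 CPM (log2 fold change -0.62, SE 0.15, adjusted p = 0.00275). The barrier gene *Cldn11* fell from 152 to 199 CPM to 112 and 106 CPM (-0.75, SE 0.15, adjusted p = 0.000355), and *Aard* from 192 to 238 CPM to 156 and 140 CPM (-0.54, SE 0.14, adjusted p = 0.00454). All 6 had groups that did not overlap, as 22.5% of all genes tested did in this direction. Without WT_d26_2 *Aard* was not called (log2 fold change -0.46, adjusted p = 0.0751), and in a fit on only the libraries of both groups *Aard* (-0.53, adjusted p = 0.0985) and *Wt1* (-0.62, adjusted p = 0.0727) were not.

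The other 4 genes were not called in WT. *Inhbb* had 59.1, 37.2, 67.7 and 68.0 CPM at day 20 and 45.0 and 37.0 CPM at day 26 (-0.50 on the log2 scale, SE 0.22, adjusted p = 0.0683). The groups overlapped only through WT_d20_2, without which the log2 fold change was -0.71 with an adjusted p of 0.00365. *Gata4* had 42.9 to 67.1 CPM and then 57.2 and 40.3 CPM (-0.21, SE 0.18, adjusted p = 0.358), and its sign depended on WT_d26_2 (0.02 without it). *Rhox5* and *Amhr2* had log2 fold changes near 0, of 0.07 (SE 0.24, adjusted p = 0.830) and 0.10 (SE 0.20, adjusted p = 0.723). The sign for *Amhr2* turned without WT_d20_2 (-0.13) and without WT_d26_1 (-0.12).

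In KO testes, 7 of the 10 genes were lower at day 26 than at day 20 and none was higher. They were *Fshr*, *Sox9*, *Aard*, *Cldn11*, *Wt1*, *Inhbb* and *Gata4*. Of all genes tested, 24.9% were called lower in this comparison. The median log2 fold change was -0.67 over the 10 genes and -0.07 over all genes tested.

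*Fshr* had 16.5, 17.8, 12.4 and 11.3 CPM in the KO libraries of day 20, and 6.95 and 6.31 CPM at day 26 (-1.13 on the log2 scale, SE 0.21, adjusted p = 0.000197). *Sox9* had 76.2, 86.6, 75.1 and 85.9 CPM and then 42.7 and 40.2 CPM (-0.97, SE 0.17, adjusted p = 9.79e-05). *Aard* fell from 185 to 245 CPM to 127 and 119 CPM (-0.83, SE 0.14, adjusted p = 9.14e-05), *Cldn11* by 0.81 on the log2 scale (SE 0.15, adjusted p = 0.000176) and *Wt1* by 0.73 (SE 0.15, adjusted p = 0.000643). The late libraries of all these genes lay below every early one. *Gata4* went from 48.7 to 68.7 CPM to 39.1 and 37.7 CPM (-0.59, SE 0.18, adjusted p = 0.0102), and *Inhbb* from 49.2 to 64.2 CPM to 37.8 and 33.0 CPM (-0.62, SE 0.22, adjusted p = 0.0219).

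The last 2 calls were lost in some fits without a library, at log2 fold changes from -0.74 to -0.54. *Gata4* was not called without KO_d26_1 (-0.63, adjusted p = 0.0526) or KO_d26_2 (-0.58, adjusted p = 0.0777). *Inhbb* was not called without KO_d20_4 (-0.54, adjusted p = 0.0552), KO_d26_1 (-0.74, adjusted p = 0.0593) or KO_d26_2 (-0.55, adjusted p = 0.159). The fits without a KO library of day 26 leave 1 library in that group, which is assumed to vary like the others. *Rhox5* (log2 fold change -0.09, SE 0.24, adjusted p = 0.774) and *Amhr2* (-0.18, SE 0.21, adjusted p = 0.470) were not called in KO either, and the sign for *Rhox5* turned without KO_d20_3 (0.03). *Clu* had 1022, 1006, 1112 and 1146 CPM at day 20 and 922 and 942 CPM at day 26. Although these groups did not overlap either, as 35.9% of all genes tested did in this direction, the change was -0.20 on the log2 scale (SE 0.19, adjusted p = 0.374).

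**Figure D2:**
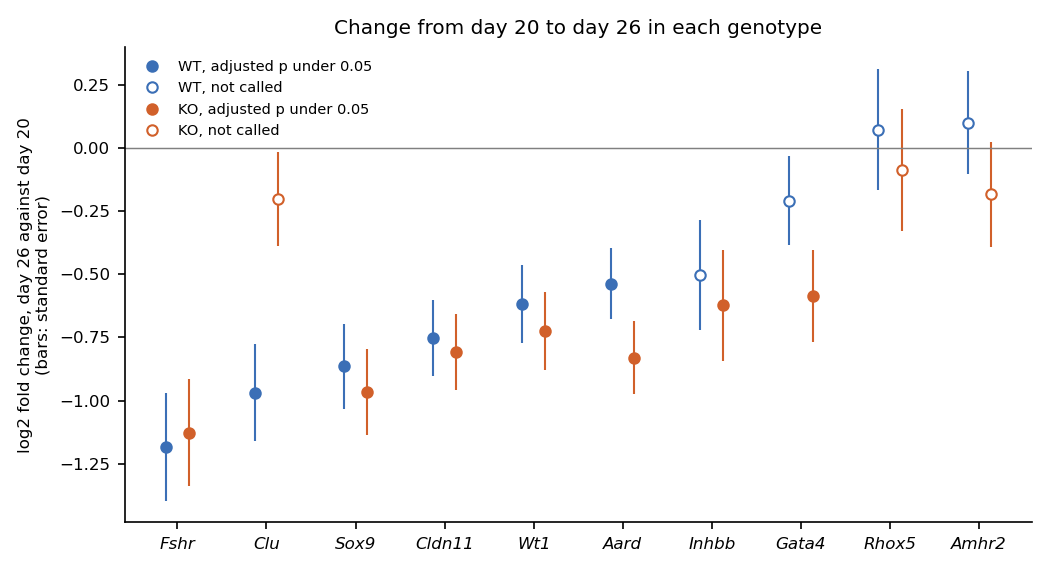
Log2 fold change from day 20 to day 26 for each gene in WT (blue) and KO (orange), with standard errors as bars. Filled points were called at an adjusted p under 0.05. *Fshr* is lowest in both genotypes, *Clu* is at -0.97 in WT and -0.20 in KO, and *Rhox5* and *Amhr2* lie near 0.

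Whether the age change differed between genotypes was tested directly. For *Clu* the KO effect at day 26 exceeded that at day 20 by 0.77 on the log2 scale (SE 0.26, unadjusted p = 0.00781, edgeR adjusted p = 0.244), and the KO effect at day 22 exceeded that at day 20 by 0.65 (SE 0.21, unadjusted p = 0.00605, adjusted p = 0.362). Neither was called, nor was any other of the 10 genes. Over all genes, 0.00582% were called for day 22 and 0% for day 26. For the other 9 genes the day 26 difference ranged from -0.38 for *Gata4* to 0.06 for *Fshr*. These 2 contrasts were added after the data had been seen.

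The shorter step from day 20 to day 22 was compared in the same way, against the same libraries of day 20. In WT, all 10 log2 fold changes were below 0, with a median of -0.31 against -0.02 over all genes. *Clu* (-0.59, SE 0.15, adjusted p = 0.00944), *Cldn11* (-0.36, SE 0.12, adjusted p = 0.0336) and *Wt1* (-0.36, SE 0.12, adjusted p = 0.0421) were called lower, as were 7.15% of all genes tested. *Fshr* (-0.46, adjusted p = 0.0518) and *Sox9* (-0.35, adjusted p = 0.0643) lay just outside the threshold, and *Fshr* was called with the replicate number as a block (-0.45, adjusted p = 0.0449) and by DESeq2 (-0.45, adjusted p = 0.0394). *Wt1*, *Clu*, *Fshr* and *Aard* had WT libraries of day 22 below all those of day 20, as 8.32% of all genes tested did. In KO 0 of the 10 genes were called, against 10.6% of all genes in either direction, and 0 had an unadjusted p under 0.05, against 28.6% of all genes. DESeq2 also called 0 there, against 15.1% of all genes. The log2 fold changes in KO ran from -0.31 for *Fshr* to 0.38 for *Rhox5*. Over the fits that each left out 1 library, the WT count ran from 0 (without WT_d22_1) to 5 (without WT_d20_2), so the WT calls of day 22 depended on single libraries. The range counts the 10 genes only and is given without the share of all genes called in each of these fits.

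**Figure D3:**
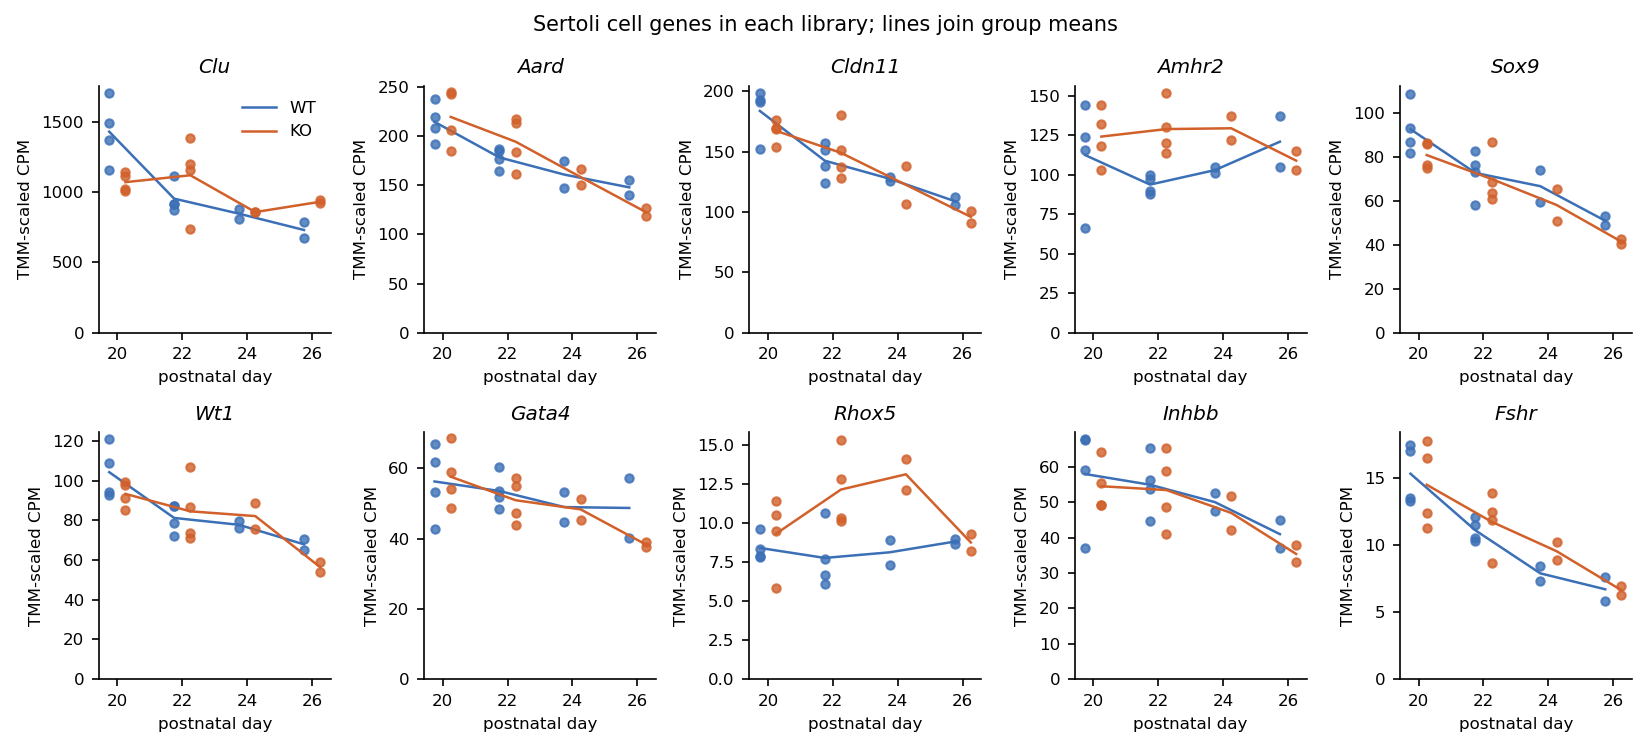
TMM-scaled CPM of each gene against postnatal day, 1 point per library, WT blue and KO orange, with lines joining the group means. *Fshr*, *Sox9*, *Cldn11* and *Wt1* decline in both genotypes, from 13.3 to 17.5 CPM to 5.81 and 7.59 CPM for *Fshr* in WT, while *Rhox5* and *Amhr2* were not called from day 20 to day 26 in either genotype.

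Markers of other cells moved with age over the same libraries. Of 6 round spermatid markers and 6 elongating spermatid markers, 6 and 6 rose from day 20 to day 26 in each genotype. The summed level of the elongating spermatid markers ranged from 0.632 to 4.46 CPM in the WT libraries of day 20 and from 1341 to 2391 CPM at day 26, and in KO from 3.27 to 58.6 CPM and from 2392 to 2483 CPM. *Acrv1*, an acrosomal gene of round spermatids, went from 0.316 to 2.09 CPM to 162 and 167 CPM in WT. Of the Leydig cell markers, 8 of 8 were called higher in WT and 3 of 8 in KO. In each genotype 8 of 8 had log2 fold changes above 0, with medians of 1.94 in WT and 0.67 in KO. Of the 6 peritubular myoid markers, 1 was called higher and 3 lower in WT, and 1 higher and 4 lower in KO. The summed level of the 10 Sertoli cell genes was 1860 to 2653 CPM at day 20 and 1234 to 1432 CPM at day 26 in WT. In KO it was 1844 to 2005 CPM and 1436 to 1459 CPM. The part of the spermatid RNA in the fall of the Sertoli cell genes was not tested.

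The change relative to further genes expressed in Sertoli cells was measured by scaling the libraries on 49 genes of 4 further Sertoli lists. None of them is among the 10. Some, such as *Emx2* and *Eppin*, are also expressed outside Sertoli cells, so the scale is not one of Sertoli cell RNA alone. This scaling raised the median log2 fold change of all genes from day 20 to day 26 to 0.39 in WT and 0.44 in KO. On this scale *Fshr* was lower at day 26 by -0.77 in WT and -0.62 in KO, and *Sox9* by -0.43 and -0.46, each called, as were 2.12% of all genes tested in the lower direction in WT and 3.70% in KO. *Clu* was called lower in WT (-0.53) and had 0.31 in KO (adjusted p = 0.165). *Amhr2* was called higher in WT (0.53, adjusted p = 0.0239), as were 39.9% of all genes tested, and had 0.32 in KO (adjusted p = 0.169). *Wt1*, *Cldn11*, *Aard*, *Gata4* and *Inhbb* were not called on it in either genotype, with log2 fold changes from -0.32 to 0.22. *Rhox5* was not called on it either, and its value in KO, given in the closing section, lay above that range. From day 20 to day 22 in WT, 0 of the 10 genes were called on this scale, against 0.629% of all genes called lower. Leaving out the 9 libraries with *Crisp1* above 10 CPM, 2 of the 10 genes were called lower in WT, *Clu* (-0.76, adjusted p = 0.0451) and *Fshr* (-1.07, adjusted p = 0.0454), against 2.63% of the 17102 genes tested in this fit. In KO 3 were called, against 3.11% of those genes, *Sox9* (-0.92, adjusted p = 0.0303), *Fshr* (-1.09, adjusted p = 0.0434) and *Aard* (-0.82, adjusted p = 0.0293). This fit has a single library for each genotype at day 26, and the genes that were no longer called had log2 fold changes from -0.73 to -0.41, against -0.86 to -0.54 over all libraries. In WT these were *Sox9* (-0.72), *Cldn11* (-0.67), *Wt1* (-0.60) and *Aard* (-0.41), and in KO *Cldn11* (-0.73), *Wt1* (-0.67), *Inhbb* (-0.54) and *Gata4* (-0.51).

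**Figure D4:**
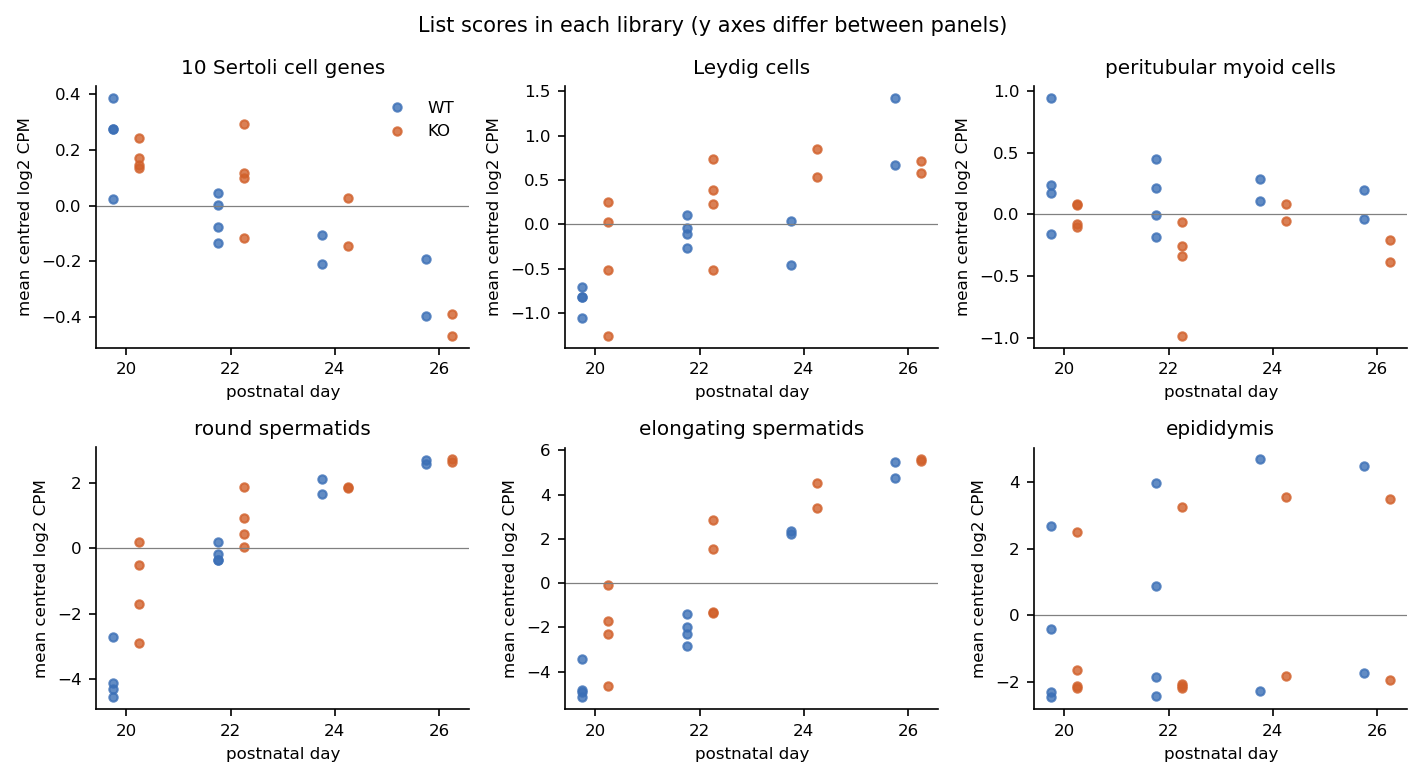
Mean centred log2 CPM of 6 marker lists in each library against postnatal day, WT blue and KO orange, with different y axes. The score of the 10 Sertoli cell genes goes from a WT mean of 0.240 at day 20 to -0.294 at day 26 while both spermatid scores rise, and the epididymis score (3 of 6 genes measured) splits the libraries within groups.

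Further Sertoli cell genes were counted from 4 lists by function. In the counts of these lists, fell and rose mean called lower and called higher. Of 10 transcription factors, 5 fell and 1 rose from day 20 to day 26 in WT, and 4 fell and 1 rose in KO. The largest falls in WT were those of *Nr0b1*, the orphan receptor DAX1 (log2 fold change -0.95, SE 0.16), *Rhox8* (-0.87, SE 0.21), *Dmrt1*, a keeper of male cell fate (-0.75, SE 0.17), and *Gata1* (-0.72, SE 0.19). *Emx2*, a homeobox gene also of the urogenital ducts, rose by 1.48 (SE 0.50) in WT and 1.61 (SE 0.48) in KO. Within every WT group and in 3 of the 4 KO groups its highest library was one with *Crisp1* above 10 CPM, such as 4.39 CPM in WT_d20_3, 5.83 CPM in WT_d22_4, 8.56 CPM in WT_d24_2 and 6.96 CPM in WT_d26_2. The part of epididymal RNA in its level was not tested.

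Of 12 genes of anti-Müllerian hormone, inhibin and FSH signalling, 2 fell and 1 rose in WT and 6 fell in KO. In WT these were the receptor gene *Bmpr1a* (-0.84, SE 0.21), its effector *Smad5* (-0.33, SE 0.12) and, higher, the receptor gene *Acvr1* (1.11, SE 0.36). In KO the largest fall was that of *Inhba*, the inhibin beta A subunit (-1.95, SE 0.40), a gene at 0.482 and 0.918 CPM in KO at day 26 and at 2.51 to 3.17 CPM at day 20. *Bmpr1a* (-0.94, SE 0.21), *Amh* itself (-0.86, SE 0.30) and *Smad5* (-0.68, SE 0.12) followed.

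Of 12 junction genes, 5 fell in WT and 6 in KO, and none rose. *Ocln*, the occludin of tight junctions, had -1.12 (SE 0.23) and -1.33 (SE 0.23). The junctional adhesion molecule genes *F11r* (-0.96 and -0.82, SE 0.15 and 0.14) and *Jam2* (-0.88 and -0.90, SE 0.15 and 0.15) fell beside it. Of 16 secreted and androgen-responsive genes, 9 fell in each genotype. *Shbg*, the androgen-binding protein, had the largest fall among the called genes in WT (-1.71, SE 0.21) and -1.36 (SE 0.21) in KO. *Gstm6* had -1.14 and -1.07 (SE 0.17 in each), and *Gdnf*, the growth factor of spermatogonial stem cells, had -0.93 (SE 0.30) and -1.41 (SE 0.31).

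KO and WT were then compared at each day, which asks how loss of ATAD2 altered the testis transcriptome. None of the 10 Sertoli cell genes was called at day 20, 22, 24 or 26, over the mean of the 4 days, or in the joint test of a KO effect that differs between days. Of all genes tested, 3.34%, 2.51%, 0.0874% and 0.0466% were called at the 4 days, 7.08% over their mean and 0.00582% in the joint test. The share at day 26 rests on 8 genes, which became 153 in DESeq2, 103 without WT_d20_2 and 0 without KO_d26_1 or KO_d26_2. Without the libraries with *Crisp1* above 10 CPM the shares were 0.0175% at day 20 and 0.111% at day 22, and 0 of the 10 genes were called there too. At days 24 and 26 this fit had 1 library per genotype, so calls at these days could not be compared with those above. The share over the mean, which rests partly on them, also fell. The median log2 fold changes over the 10 genes were 0.03 at day 24, -0.17 at day 26 and 0.02 over the mean. At an unadjusted p under 0.05 there were 1, 2, 1 and 0 of the 10 genes at the 4 days, 2 over the mean and 1 in the joint test, against 12.5%, 14.6%, 5.23%, 11.5%, 23.2% and 9.06% of all genes tested. DESeq2 called 1 of the 10 at day 22 and 1 over the mean, *Rhox5* in both, where it called 4.36% and 10.6% of all genes. The median log2 fold change over the 10 genes was -0.08, 0.07, 0.00 and -0.20 at the 4 days, against medians over all genes of 0.01, 0.01, -0.01 and -0.04.

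*Rhox5* came nearest to the threshold. At day 22 it had 12.8, 10.3, 15.3 and 10.1 CPM in KO and 10.6, 7.69, 6.06 and 6.65 CPM in WT. Only WT_d22_1 reached into the range of the KO libraries. The difference was 0.65 on the log2 scale (SE 0.20, adjusted p = 0.0817). At day 24 it had 12.1 and 14.1 CPM in KO and 7.32 and 8.90 CPM in WT, without overlap, as in *Amhr2* and *Fshr* and in 22.6% of all genes tested (0.69, SE 0.28, adjusted p = 0.759). At day 20 KO had 10.5, 5.82, 11.4 and 9.48 CPM and WT 8.33, 9.58, 7.80 and 7.85 CPM (0.15, SE 0.20, adjusted p = 0.845), and at day 26 the groups were level, with 8.19 and 9.29 CPM in KO and 8.98 and 8.61 CPM in WT (-0.01, SE 0.28, adjusted p = 0.997).

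Over the mean of the 4 days *Rhox5* had a log2 fold change of 0.37 (SE 0.12, adjusted p = 0.0621). It passed the threshold in DESeq2 (0.39, adjusted p = 0.0292) and in 4 of 24 fits that each left out 1 library, without KO_d20_2 (adjusted p = 0.0170), WT_d22_1 (0.0264), WT_d20_2 (0.0460) or KO_d22_4 (0.0487). At day 22 alone it passed in DESeq2 (0.67, adjusted p = 0.0353) and without WT_d22_1 (0.86, adjusted p = 0.0316) or KO_d20_2 (0.65, adjusted p = 0.0400). It was not called at day 22 with RLE size factors, with scaling on other Sertoli genes or without the libraries with *Crisp1* above 10 CPM. Without the libraries with *Crisp1* above 10 CPM the mean was 0.25 (adjusted p = 0.860).

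*Amhr2* had 120, 114, 130 and 152 CPM in KO at day 22, all above the 89.9, 97.4, 99.9 and 88.0 CPM of WT. Of all genes tested, 3.64% lay higher in KO without overlap at this day. The difference was 0.46 on the log2 scale (SE 0.17, adjusted p = 0.166), and it was called only without WT_d20_2 (adjusted p = 0.0390). At day 24 KO had 137 and 122 CPM and WT 101 and 105 CPM (0.34, SE 0.24, adjusted p = 1). At day 20 (0.14) and day 26 (-0.15) the groups overlapped. The gene is also expressed in Leydig cells. Over days 20, 22, 24 and 26 the Leydig list had median log2 fold changes of 0.57, 0.51, 0.96 and -0.49, with 1 of 8 markers called at day 22, *Hsd17b3* (1.22, SE 0.32, adjusted p = 0.0423). Its summed level was 482 to 1188 CPM in KO and 704 to 867 CPM in WT at day 22. The part of Leydig RNA in the level of *Amhr2* was not tested.

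*Clu* changed its order between days. At day 20 its 4 KO libraries, at 1022, 1006, 1112 and 1146 CPM, lay below the WT libraries, the lowest of which was WT_d20_2 at 1157 CPM. Of all genes tested, 1.68% had KO below WT without overlap at this day. The difference was -0.42 on the log2 scale (SE 0.15, adjusted p = 0.178). At day 22 KO had 738, 1158, 1202 and 1385 CPM and WT 872, 913, 1115 and 917 CPM (0.23, SE 0.15, adjusted p = 0.562). At day 24 the genotypes were level at 857 and 860 CPM against 883 and 811 CPM. At day 26 KO lay above WT, with no overlap (27.8% of all genes tested), at 922 and 942 CPM against 791 and 671 CPM (0.35, SE 0.21, adjusted p = 0.551). The joint test of a KO effect that differs between days gave an unadjusted p of 0.0169 and an adjusted p of 0.431. Fitted on the libraries of day 26 alone, *Clu* was called (0.36, adjusted p = 0.0383), in a fit that called 2104 genes against 8 in the fit over all libraries. Libraries with *Crisp1* above 10 CPM held the highest *Clu* of their group in WT at days 20 and 22 and in KO at days 24 and 26, and the lowest in KO at day 22 and in WT at days 24 and 26. The part of epididymal RNA in the level of *Clu* was not tested.

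The remaining 7 genes had log2 fold changes from -0.35 to 0.27 at single days. *Sox9* was below 0 at each day (-0.20, -0.06, -0.20 and -0.30) and over their mean (-0.19, SE 0.08, unadjusted p = 0.0305, adjusted p = 0.162). At day 26 its KO libraries, at 42.7 and 40.2 CPM, lay below the WT libraries, at 53.1 and 48.9 CPM. *Wt1*, *Gata4*, *Cldn11* and *Aard* also had lower KO libraries without overlap at that day, *Gata4* with the largest difference (-0.35, SE 0.20, adjusted p = 0.535). So did 31.1% of all genes tested at day 26, where each group has 2 libraries. *Fshr* (0.06, SE 0.10, adjusted p = 0.769), *Wt1* (-0.07, SE 0.07, adjusted p = 0.619), *Cldn11* (-0.08, SE 0.07, adjusted p = 0.563), *Aard* (-0.03, SE 0.07, adjusted p = 0.830), *Gata4* (-0.10, SE 0.09, adjusted p = 0.542) and *Inhbb* (-0.11, SE 0.11, adjusted p = 0.593) had small differences over the mean of the days.

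**Figure D5:**
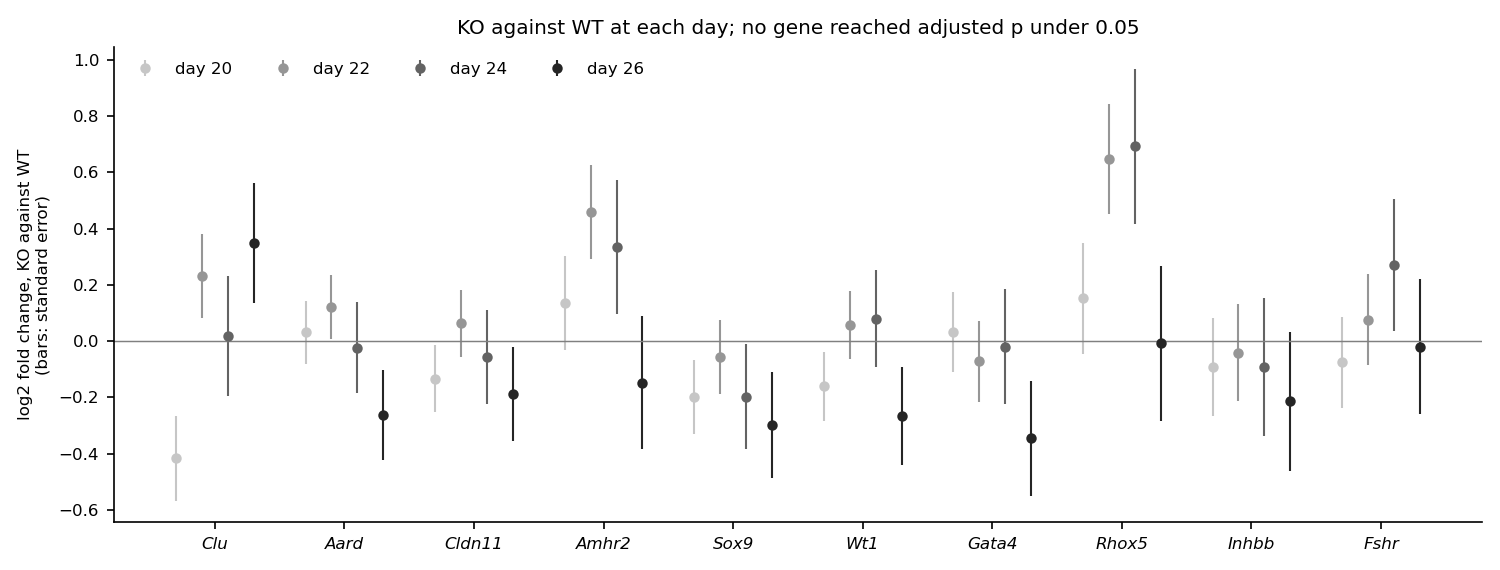
Log2 fold change of KO against WT at each day for each gene, with standard errors as bars, from light (day 20) to dark (day 26). *Rhox5* lies at 0.65 and 0.69 at days 22 and 24, *Clu* goes from -0.42 at day 20 to 0.35 at day 26, and none was called.

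Genes of the 4 further Sertoli lists were compared between genotypes in the same fit. *Eppin*, an androgen-responsive protease inhibitor also made in epididymis, was higher in KO at day 22 (0.58 on the log2 scale, SE 0.14, adjusted p = 0.0331), with 31.5, 40.0, 42.1 and 44.8 CPM in KO and 32.0, 27.1, 24.2 and 22.6 CPM in WT. Its groups overlapped by KO_d22_1 and WT_d22_1, and without the libraries with *Crisp1* above 10 CPM it had 0.54 (adjusted p = 0.652). Over the mean of the days, 2 of the 12 signalling genes were lower in KO and 0 of the 12 junction genes and 0 of the 16 secreted and androgen-responsive genes were called. The 2 were *Inhba* (-0.65, SE 0.18, adjusted p = 0.0328) and *Prkar2b*, a regulatory subunit of protein kinase A (-0.55, SE 0.12, adjusted p = 0.0143). Without the same libraries they had -0.92 (adjusted p = 0.566) and -0.40 (adjusted p = 0.687). Markers of other cells differed between genotypes over the same libraries. Of the round spermatid markers, 6 of 6 were higher in KO at day 20, with a median log2 fold change of 3.39, and 0 of 6 were called at days 22, 24 and 26, with medians of 1.15, -0.01 and 0.04. Of the elongating spermatid markers, 2 of 6 were higher at day 20 (median 3.43), 4 of 6 at day 22 (4.48) and 6 of 6 over the mean of the days (2.68). Over the mean of the days, 2 of 6 endothelial and 2 of 6 peritubular myoid markers were lower, with medians of -0.41 and -0.43. Without the libraries with *Crisp1* above 10 CPM, 0 of these markers were called between genotypes, with medians of 2.88 for round and 3.33 for elongating spermatids at day 20. The part of these cells in the differences above was not tested.

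The 10 genes did not share a single profile. The mean of their centred log2 levels was 0.240, -0.041, -0.159 and -0.294 in WT over days 20, 22, 24 and 26, and 0.174, 0.098, -0.060 and -0.427 in KO. *Aard*, *Cldn11* and *Wt1* followed this mean most closely, with root mean square differences of 0.111, 0.112 and 0.116 on the log2 scale over 24 libraries, although each is part of the mean. *Rhox5* (0.410), *Fshr* (0.287) and *Amhr2* (0.278) followed it least, and 9281 is the rank of *Rhox5* among all 17170 genes by closeness. The genes outside the 10 with the closest profiles were *Ubtf* (0.071), *Snx33* (0.075), *Agfg2* (0.078), *Reep1* (0.078) and *Gart* (0.079), measured over the same 24 libraries, where all genes of a library share its depth and age.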

How the data were processed

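Strand-specific, ribosome-depleted total RNA libraries of mouse testis were sequenced as read pairs. The authors aligned reads to mm10 with STAR 2.7.11b and counted pairs in exons with HTSeq, using the strand, requiring the pair to lie within a single gene and discarding multiple alignments. The deposited files are 1 table per library of counts by gene symbol, without normalization, although the study itself normalized with DESeq2 1.22.2. Pairs in no feature made up 45.1% to 58.5% of a table and, like the 4 other tallies, entered neither the library sizes nor the tests. Intervals and floors would cover counting error only, since the pairs carry no molecular identifiers.

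Groups came from the labels. Counts were tested with edgeR 4.0.16 (TMM scaling, filterByExpr with a minimum count of 10, robust quasi-likelihood fit) in R 4.3.3 over all 24 libraries with 8 group coefficients, two-sided, and p-values were adjusted over 17170 genes. List scores average log2 CPM (prior count 2) after each gene was centred on its mean. DESeq2 1.42.0, RLE size factors, no filter, a replicate block, fits on fewer libraries, scaling on other Sertoli genes and leaving out each library were tried as alternatives. The test code was tested on simulated data. Lengths and positions came from GENCODE M21, and 23336 symbols were placed. The libraries closest to each other within a group still differed beyond sampling noise. Named beside the 10 genes are *Atad2*, up to 4 called genes of each further Sertoli list in each direction with the largest changes, the 5 nearest profiles and the leading markers of other cells. Other markers named (*Smad5*, *Hsd17b3*) and the per-library values of *Emx2*, *Inhba* and *Eppin* were chosen after their values were seen. 1 further gene of these lists entered the fits and list counts but is not reported here. The 10 genes and all lists were chosen with earlier results of these data known.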

Additional observations from a re-analysis of the deposited data

How the results depend on the processing

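RLE size factors changed no count of called genes among the 10, and neither did the replicate block beyond 4 in place of 3 for day 22 against day 20 in WT. The replicate numbers were not taken as pairs. Same-numbered WT and KO libraries correlated in their deviations by 0.071 to 0.41 at day 20, 0.39 at day 24 and 0.416 at day 26. At day 22 they correlated by -0.459 to -0.025, so that not every pair went together. The libraries with *Crisp1* above 10 CPM had the same number in both genotypes at days 20, 24 and 26, but not at day 22. The block left all other counts as they were. DESeq2 called 1 gene at day 22 and 1 over the mean of the days between genotypes, and 4 in place of 3, with *Fshr* added, for day 22 against day 20 in WT. In that last comparison it called 1411 of all 17170 genes lower. For day 22 against day 20 in WT, 3 genes became 1 with no low-count filter and 1 with only the libraries compared, where *Cldn11* and *Wt1* lost their calls at -0.34 and -0.37 on the log2 scale in place of -0.36, 0 with scaling on other Sertoli genes (0.629% of all genes lower) and 0 without the libraries with *Crisp1* above 10 CPM (0% of all genes lower). For day 26 against day 20, the last of these gave 2 in WT and 3 in KO, only the libraries compared gave 4 in WT, and scaling on other Sertoli genes gave 4 in WT, 1 of them higher, and 2 in KO. Only the libraries of day 26 gave 1 call between genotypes, and 2104 over all genes against 8. The age counts from only the libraries compared, and the ranges that follow, are given without the share of all genes called in those fits. Leaving out each library in turn gave 0 to 1 calls between genotypes at day 22 and over the mean of the days, 0 to 5 for day 22 against day 20 in WT, 5 to 7 for day 26 in WT and 5 to 7 in KO.

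Only values that were not called turned their sign. KO against WT over the mean of the days, *Aard* had 0.04 with scaling on other Sertoli genes and -0.05 to 0.00 with each library left out, and without the libraries with *Crisp1* above 10 CPM *Wt1* had 0.05 and *Cldn11* 0.01. From day 20 to day 26, scaling on other Sertoli genes gave 0.22 for *Gata4* in WT, and 0.42 for *Rhox5*, 0.31 for *Clu* and 0.32 for *Amhr2* in KO. With each library left out, *Gata4* in WT ran from -0.49 to 0.02, *Amhr2* in WT from -0.13 to 0.28 and *Rhox5* in KO from -0.26 to 0.03, the sign turning without WT_d26_2 for *Gata4*, WT_d20_2 or WT_d26_1 (-0.12) for *Amhr2* and KO_d20_3 for *Rhox5*. *Gata4* in WT had 0.12 without the libraries with *Crisp1* above 10 CPM. Causes of these changes were not tested. Depth limits *Rhox5* and *Fshr* most, at 89 to 232 and 81 to 272 counts per library.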
